A study of Danio rerio with 4 samples.

Results

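The genes of S phase and DNA replication were followed in venous and lymphatic endothelial cells of zebrafish embryos. The set was given as a list of 29 gene symbols for origin licensing, helicase activation, the polymerases and the fork, nucleotide supply, and chromatin made behind the fork. All 29 symbols were found among the 29027 rows of the expression tables, and all 29 passed the filter on low values described below. Homozygous tie1 mutants (tie1-/-) were compared with their siblings, which were a pool of wild-type and heterozygous embryos. There were 2 mutant and 2 sibling libraries, all at 47 hours post fertilization and all in the Tg(kdrl:EGFP);Tg(lyve1:DsRed) background. The cells came from the trunk and tail and were sorted for both reporters, so the kdrl and lyve1 promoters define the population. Mutant embryos were taken only if they had blood flow. The tie1 allele and the number of embryos per library are not given in the sources used here. The comparison asks how loss of Tie1, an endothelial receptor tyrosine kinase of the angiopoietin pathway, changes the transcripts of these cells. The labels do not say that the replicates came from separate clutches, so the p-values below rest on differences between libraries only, which may be technical. Those from limma take the spread from genes of like level and not from a gene's own replicates.

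DNA replication starts when the origin recognition complex, Cdc6 and Cdt1 load the ring-shaped MCM helicase onto DNA in G1. Cyclin E with Cdk2, together with Cdc45 and the GINS complex, then turns the loaded ring into a moving helicase, and polymerases held by the PCNA clamp copy both strands. Most of these genes are transcribed at the G1 to S transition under E2F factors in vertebrates, so their transcripts are widely used as a sign of cycling cells. Endothelial cells of the growing trunk vessels, including the posterior cardinal vein from which lymphatic cells sprout, divide actively at this stage.

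Values are TPM (transcript abundance per fixed total), which are scaled by transcript length and can be compared between genes within a library. The libraries did not share one baseline. Genes of sensory cells and the lens (327 odorant, trace amine, vomeronasal and taste receptors and gamma crystallins, taken by symbol) had a median of 2.26 and 3.64 TPM in sibling replicates 1 and 2, and of 8.38 and 11.0 TPM in mutant replicates 1 and 2. The 95th percentile of these genes in a library is called its background limit, and it was 3.93, 6.44, 13.7 and 18.9 TPM in the same order. The median log2 fold change of all 28301 genes tested was 1.17, while it was -1.33 for the 3987 tested genes with a mean of at least 20 TPM over the 4 libraries. The targeted gene tie1 had 61.0 and 31.0 TPM in sibling libraries against 16.7 and 10.2 in mutant ones. Both mutant values were lower, but a two-sided exact permutation test gave p = 0.333, as low as 2 libraries against 2 can go, and limma gave an adjusted p of 0.0605. Of the 15 endothelial markers, all 15 were above the limit in both siblings, 11 in mutant replicate 1 and 9 in mutant replicate 2.

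Summed over the 29 replication genes, the level was 2106 and 1971 TPM in sibling libraries against 978 and 523 in mutant ones. With the median of the sensory and lens genes subtracted from each gene, the sums were 2041 and 1865 TPM for the siblings and 746 and 217 TPM for the mutants. On either scale neither mutant sum reached the lower sibling sum. The sum was 0.259% and 0.268% of the TPM of all listed genes in the siblings, and 0.162% and 0.109% in the mutants. The 5 most abundant members (fen1, pcna, rrm2, rpa2 and gins2) made up 54.8% of the sibling sum. The median member had 41.9 and 35.2 TPM in sibling libraries against 20.0 and 13.9 in mutant ones. Above the background limit stood 26 and 28 members in the siblings, 18 in mutant replicate 1 and 8 in mutant replicate 2. The share of all listed genes above it fell too, from 34.4% and 31.3% in the siblings to 17.0% and 10.5% in the mutants. Because these are bulk samples, fewer cells in S phase and less transcript per cell cannot be told apart. Neither can be told apart from the library-wide differences in background described above.

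**Figure D1:**
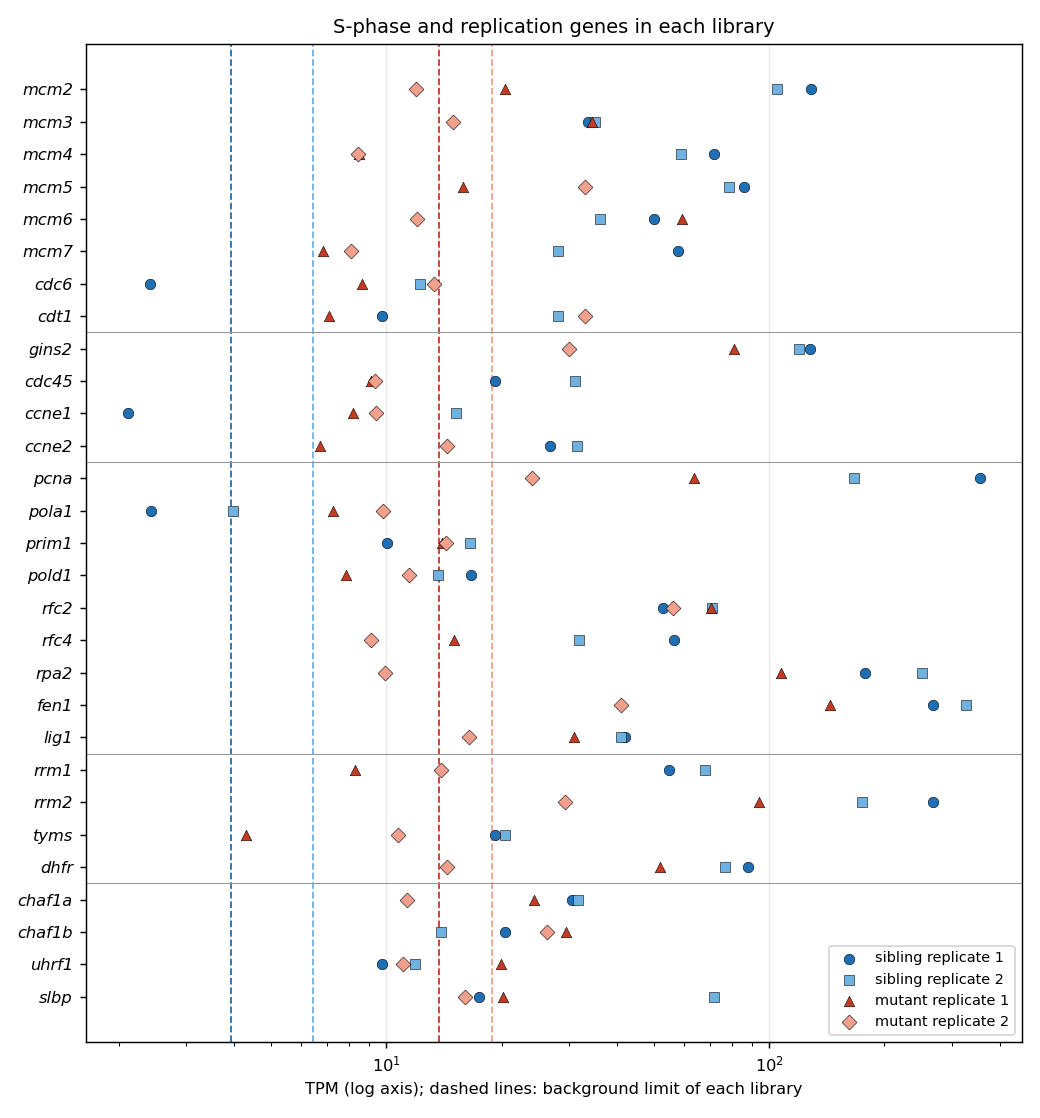
TPM of each replication gene (rows, grouped by role from licensing at the top to chromatin at the bottom) in the 4 libraries, on a log axis, with a dashed line at the background limit of each library. Most sibling points lie to the right of the mutant points, and only 8 points of mutant replicate 2 lie to the right of its own limit of 18.9 TPM.

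The comparison was made gene by gene with limma on log2(TPM + 1), with p-values adjusted over all genes by the Benjamini-Hochberg method. Of the 29 members 7 fell at an adjusted p-value under 0.05: mcm2, mcm4, mcm7, pcna, rfc4, rpa2 and rrm1. By limma 0 rose, and pola1 alone was higher at an unadjusted p-value under 0.05, where 12 members were lower. At that unadjusted level 1705 of all 28301 genes tested were lower and 15237 were higher. At the adjusted threshold the share of members that fell was 24.1%, against 4.43% of all genes tested, while 44.6% of all genes were called higher. The median log2 fold change was -1.31 for the 29 members. Fold changes depended on the level of a gene, and of the tested genes with a mean of at least 20 TPM 28.1% were called lower. That mean is taken over both groups, so a gene can pass it through its sibling values alone, and no share of the members was read against it.

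The 7 calls depended on the scaling and on single libraries. After rescaling by the median of ratios, quantile normalization or background subtraction limma called 0 members, and 0 of all genes tested. At an unadjusted p-value under 0.05 by limma 19, 7 and 10 members were lower. Of all genes 4117, 1828 and 2717 were lower at that level, out of 28301, 28301 and 14310 tested. Background subtraction left 28 of the 29 members to test. Without sibling replicate 1 no member was called, and 5 had an unadjusted p-value under 0.05 and a lower level. The log2 changes of all 7 genes stayed below 0, from -1.36 for rfc4 to -2.87 for rpa2, with -2.67 for mcm2 and -2.66 for mcm4, and the member median was -1.36.

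In the limma fit the variance of each gene was replaced by the trend for its expression level, so its SE does not measure the spread between that gene's own replicates. A count that needs no variance model was therefore added, in which both mutant values lay below both sibling values and the log2 fold change was -1 or lower. Of the 29 members 15 met it, or 51.7%, against 9.47% of all genes tested. Of all genes with a mean of at least 20 TPM 57.0% met it, under the same limit of that filter. The 29 members were not held to that mean, which 19 of them reached. Their shares in this paragraph are therefore not like for like with those of genes at that mean. After quantile normalization 11 of the 29 met it, against 8.81% of all genes tested. By rank within each library, a measure that no rescaling of a whole library changes, 13 of 29 members (44.8%) had a lower rank in both mutants than in both siblings, against 20.2% of all genes tested. Of all genes with a mean of at least 20 TPM 37.5% had a lower rank.

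**Figure D2:**
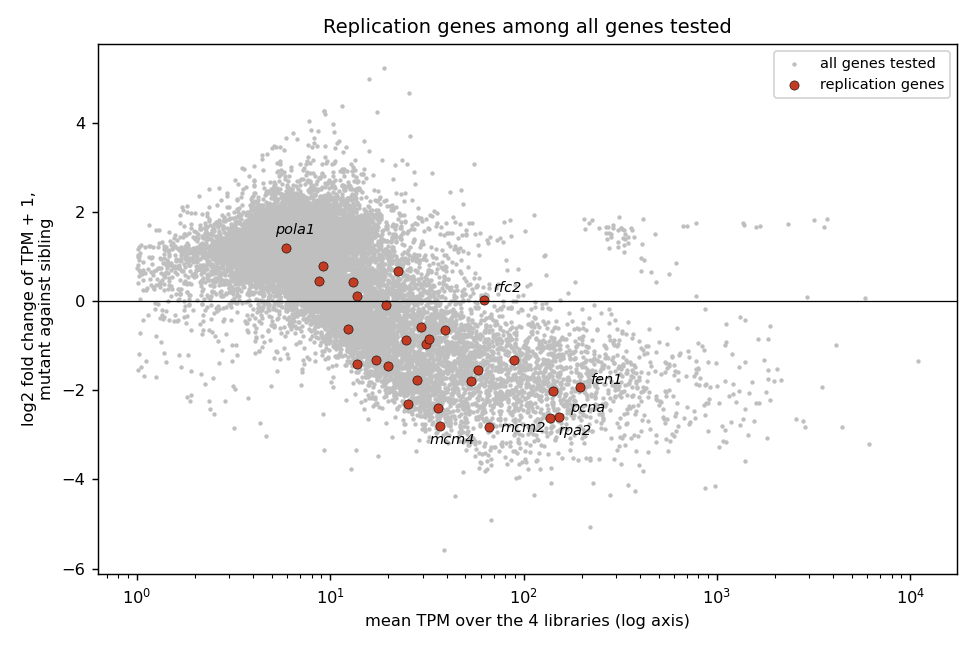
Log2 fold change of TPM + 1 (mutant against sibling) against mean TPM over the 4 libraries on a log axis, 1 point per gene, with the 29 replication genes in red. Genes of low mean lie mostly above 0 and genes of high mean mostly below 0. The replication genes range from pola1 at 1.19 to mcm2 at -2.81. Members of like mean scatter widely, as with rfc2 (mean 62.6 TPM) at 0.04 and mcm2 (mean 66.5 TPM).

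Licensing genes were described first. The MCM2-7 ring is built from 1 copy each of its 6 subunits and unwinds DNA at the fork. All 6 subunit genes were above the background limit in both siblings, at 33.7 to 129 TPM in replicate 1 and 28.1 to 105 TPM in replicate 2. The gene mcm2 had 129 and 105 TPM in sibling libraries against 20.4 and 12.0 in mutant ones (log2 change -2.81, SE 0.86, adjusted p 0.0135 by limma). Expression of mcm4 was 71.9 and 58.7 TPM in sibling libraries against 8.50 and 8.43 in mutant ones (log2 change -2.80, SE 0.78, adjusted p 0.00818 by limma). The values of mcm7 were 58.0 and 28.1 TPM in sibling libraries against 6.84 and 8.09 in mutant ones (log2 change -2.29, SE 0.73, adjusted p 0.0158 by limma). For these 3 subunits both mutant values lay below both sibling values at a log2 change of -1 or lower. That held for 9.47% of all genes tested. Of genes with a mean of at least 20 TPM it held for 57.0%, under the limit of that filter given above. The genes mcm4 and mcm7 did not exceed the background limit in either mutant library. Each of the 3 lost its call without sibling replicate 1, and mcm7 also lost it without mutant replicate 1 and without mutant replicate 2.

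The other 3 subunits of the ring did not pass the threshold. The gene mcm3 had 33.7 and 35.2 TPM in sibling libraries against 34.6 and 15.0 in mutant ones (adjusted p 0.537 by limma). The gene mcm6 had 49.9 and 36.3 TPM in sibling libraries against 59.1 and 12.0 in mutant ones (adjusted p 0.504 by limma). In mutant replicate 1 mcm6 was thus above both siblings, and mcm3 between them, whereas in mutant replicate 2 both were under the background limit. The gene mcm5 had 86.1 and 78.5 TPM in sibling libraries against 15.9 and 33.0 in mutant ones, which did not overlap (log2 change -1.80, SE 0.86, adjusted p 0.0661 by limma). The highest subunit exceeded the lowest 3.82-fold and 3.73-fold in the siblings, 8.63-fold in mutant replicate 1 and 4.08-fold in mutant replicate 2. In both mutants the lowest was mcm7, under the median of the sensory and lens genes, so the mutant ratios depend on the background level.

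Neither loading factor passed the threshold. The gene cdc6, whose product recruits the helicase to the origin complex, had 2.41 and 12.3 TPM in sibling libraries against 8.62 and 13.3 in mutant ones, and only the value of sibling replicate 2 was above a background limit. The gene cdt1, whose product brings the ring to the origin, had 9.75 and 28.0 TPM in sibling libraries against 7.10 and 33.0 in mutant ones. Each group held 1 high and 1 low library for cdt1, and it exceeded the limit in 3 of the 4. The adjusted p by limma was 0.227 for cdc6 and 0.918 for cdt1.

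Genes that activate the helicase came next, and none of the 4 members passed the threshold. The gene gins2, a subunit of GINS, had 128 and 120 TPM in sibling libraries against 80.8 and 30.1 in mutant ones (log2 change -1.31, SE 0.92, adjusted p 0.207 by limma). It stayed above the background limit in all 4 libraries, and its rank among all rows was at percentile 96.0 and 96.3 in the siblings and 96.5 and 95.3 in the mutants. The gene cdc45, which encodes the partner of GINS at the fork, had 19.2 and 31.2 TPM in sibling libraries against 9.10 and 9.35 in mutant ones (adjusted p 0.0964 by limma). Its groups did not overlap, and both mutant values were under the limit.

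The cyclin E genes, whose products activate Cdk2 at the G1 to S transition, differed from each other. Values of ccne2 were 26.8 and 31.4 TPM in sibling libraries against 6.73 and 14.4 in mutant ones (adjusted p 0.0744 by limma). Values of ccne1 were 2.12 and 15.2 TPM in sibling libraries against 8.18 and 9.40 in mutant ones, so both mutant values lay between the sibling values. Neither gene exceeded the limit in a mutant library.

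The largest group held the polymerases and the proteins of the fork, of which 3 of 9 members fell. Among all genes tested 4.43% were called lower. Among those with a mean of at least 20 TPM the share was 28.1%, under the limit of that filter given above. The clamp gene pcna had 355 and 167 TPM in sibling libraries against 63.5 and 24.0 in mutant ones (log2 change -2.61, SE 0.93, adjusted p 0.0230 by limma). All of its values were above the background limits, and the call was lost without sibling replicate 1 and without sibling replicate 2. The gene rpa2, a subunit of the single-strand binding protein RPA, had 178 and 251 TPM in the siblings (log2 change -2.63, SE 0.92, adjusted p 0.0220 by limma). In the mutants rpa2 had 107 TPM in replicate 1 and 9.91 TPM in replicate 2, the widest split of any member between the mutant libraries. It lost its call without sibling replicate 1, without sibling replicate 2 and without mutant replicate 2.

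The clamp loader RFC opens the PCNA ring onto DNA. Its subunit gene rfc4 had 56.3 and 31.8 TPM in sibling libraries against 15.0 and 9.14 in mutant ones (log2 change -1.77, SE 0.77, adjusted p 0.0452 by limma), close to the threshold and without a call when any library but sibling replicate 2 was left out. The subunit gene rfc2 had 52.9 and 70.8 TPM in sibling libraries against 70.3 and 56.2 in mutant ones (log2 change 0.04, SE 0.90, adjusted p 0.972 by limma). The mutant values of rfc2 lay within the range of the siblings, above the limits, and at percentile 96.0 and 97.9 of all rows. With the median of the sensory and lens genes subtracted, rfc2 had 50.6 and 67.2 TPM in sibling libraries against 62.0 and 45.1 in mutant ones. Mutant replicate 2 was then below both siblings.

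Genes for processing and joining Okazaki fragments were abundant. The flap endonuclease gene fen1 had 268 and 327 TPM in sibling libraries against 144 and 40.9 in mutant ones, with no overlap (log2 change -1.93, SE 0.95, adjusted p 0.0737 by limma). The ligase gene lig1 had 41.9 and 41.0 TPM in sibling libraries against 30.9 and 16.5 in mutant ones (log2 change -0.85, adjusted p 0.361 by limma). Both genes were lower in both mutants without passing the threshold.

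Of the polymerase and primase genes pola1 was near the background throughout, while prim1 and pold1 exceeded the limit in both siblings. The gene pola1, for the catalytic subunit of polymerase alpha, had 2.44 and 3.97 TPM in sibling libraries against 7.27 and 9.82 in mutant ones, under the limit in all 4 libraries. Its log2 change of 1.19 (SE 0.53, adjusted p 0.0502 by limma) was that of the median gene, and it was the single member whose value exceeded that median. The primase gene prim1 had 10.0 and 16.6 TPM in sibling libraries against 14.0 and 14.3 in mutant ones. The gene pold1, for the catalytic subunit of polymerase delta, had 16.6 and 13.7 TPM in sibling libraries against 7.83 and 11.5 in mutant ones, of which both were under the limit (adjusted p 0.417 by limma). In mutant replicate 2 all 3 genes were under the limit, so a difference between the groups was not detectable above its background.

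All 4 genes of nucleotide supply had lower values in both mutants than in both siblings, and 1 fell, beside 4.43% of all genes tested. All 4 also had a log2 change of -1 or lower, which with such separation held for 9.47% of all genes tested. Of genes with a mean of at least 20 TPM it held for 57.0%, under the limit of that filter given above. Of 21 other genes of nucleotide synthesis it held for 3. Ribonucleotide reductase makes deoxynucleotides and needs both a large and a small subunit. The large subunit gene rrm1 had 54.8 and 68.1 TPM in sibling libraries against 8.29 and 13.9 in mutant ones (log2 change -2.40, SE 0.79, adjusted p 0.0181 by limma), and both mutant values were under the limit. Its call was lost without sibling replicate 1 and without mutant replicate 1. The small subunit gene rrm2 had 268 and 175 TPM in sibling libraries against 94.0 and 29.3 in mutant ones, still above the limit in both (log2 change -2.02, SE 0.94, adjusted p 0.0589 by limma). The levels of rrm2 and rrm1 differed 4.90-fold and 2.56-fold in the siblings, 11.3-fold in mutant replicate 1 and 2.1-fold in mutant replicate 2.

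Thymidylate synthesis showed the same order of groups. The thymidylate synthase gene tyms had 19.3 and 20.4 TPM in sibling libraries against 4.31 and 10.8 in mutant ones (log2 change -1.40, adjusted p 0.0623 by limma). In mutant replicate 1 tyms stood at percentile 9.48 of all rows. The dihydrofolate reductase gene dhfr had 87.9 and 76.9 TPM in sibling libraries against 51.9 and 14.4 in mutant ones (log2 change -1.54, adjusted p 0.115 by limma).

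Among the 4 genes of chromatin and histone message none passed the threshold. CAF-1 is the chaperone that places histones behind the fork. The gene chaf1a had 30.6 and 31.7 TPM in sibling libraries against 24.4 and 11.3 in mutant ones (adjusted p 0.324 by limma). The gene chaf1b had 20.4 and 13.9 TPM in sibling libraries against 29.5 and 26.3 in mutant ones, with both mutant values above both sibling values and above the limits (log2 change 0.69, SE 0.76, adjusted p 0.429 by limma). On the TPM scale chaf1b was the 1 member above background that was higher in both mutants. With the median of the sensory and lens genes subtracted the groups overlapped. The subtracted values of chaf1b were 18.2 and 10.2 TPM in sibling libraries against 21.1 and 15.3 in mutant ones. Its log2 change was above 0 in 15 of 16 alternatives, at 1.32 after quantile normalization, 1.21 after rescaling to 1000000 and 0.37 after background subtraction, and it was -0.64 after median-of-ratios rescaling. The gene uhrf1, which recruits the maintenance DNA methyltransferase to newly copied DNA, had 9.72 and 11.9 TPM in sibling libraries against 20.0 and 11.0 in mutant ones. The gene slbp, for the protein that binds the stem-loop of histone messages, had 17.5 and 71.7 TPM in sibling libraries against 20.2 and 16.0 in mutant ones, so its sibling mean rested on replicate 2.

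**Figure D3:**
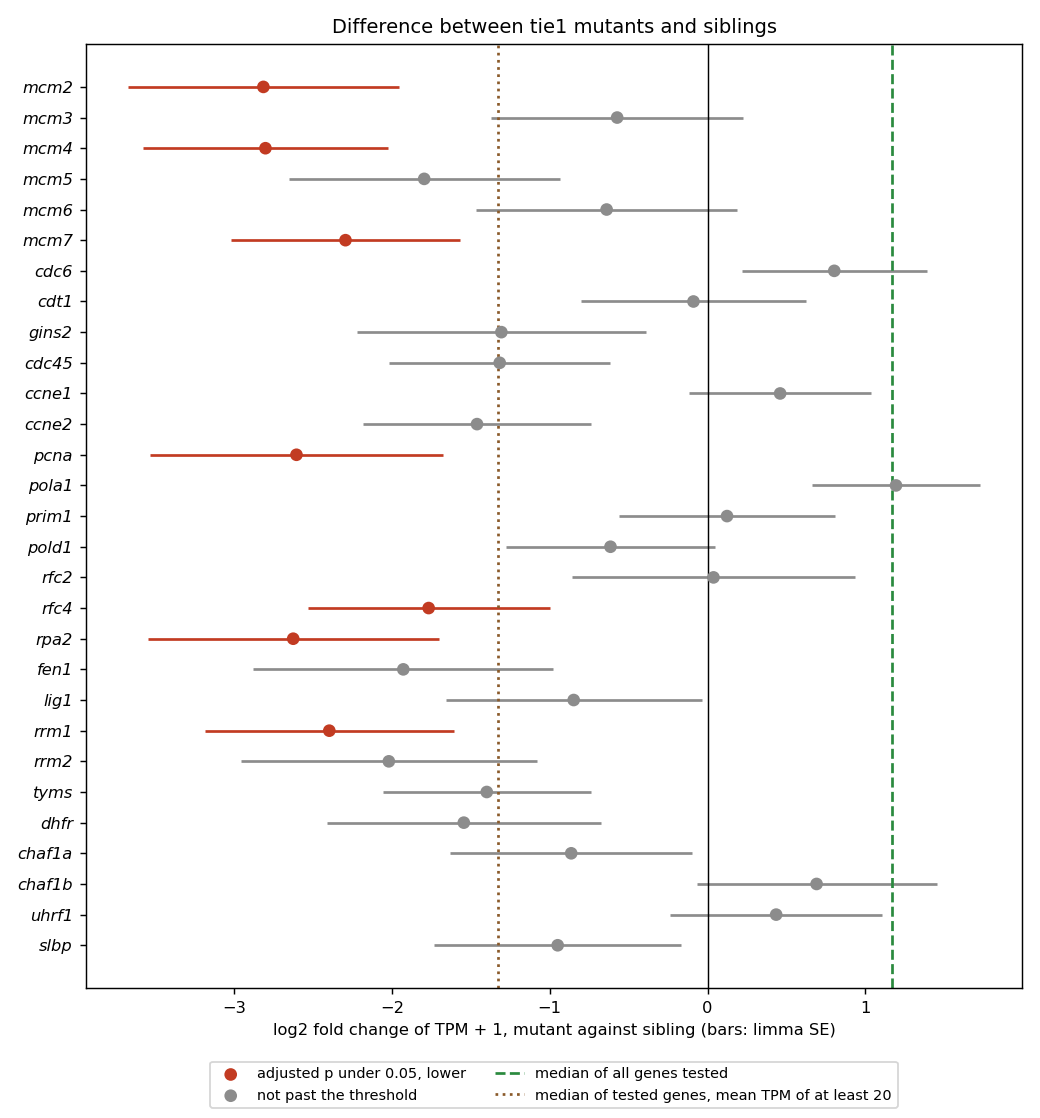
Log2 fold change of TPM + 1 between mutants and siblings for each replication gene, with bars of 1 limma SE, in the same order of roles. The 7 genes that fell are red, and 28 of the 29 points lie left of the dashed line at 1.17, the median of all genes tested, while the dotted line marks -1.33, the median of tested genes with a mean of at least 20 TPM.

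By the median over the 29 members, replicates lay further apart in the mutants than in the siblings, but several members went the other way. Among those, ccne1 had 2.12 and 15.2 TPM in sibling libraries against 8.18 and 9.40 in mutant ones. The gene slbp had 17.5 and 71.7 TPM against 20.2 and 16.0. The same factors were not counted over all genes. The larger sibling value of a gene exceeded the smaller by a median factor of 1.34 over the 29 members, and the larger mutant value exceeded the smaller by 1.81. Mutant replicate 1 was the higher of the mutants for 17 members and mutant replicate 2 for 12. Across the 29 members, which share their libraries and are not independent, log2(TPM + 1) of the siblings gave r = 0.896 (Pearson), and that of the mutants r = 0.537. Mutant replicate 1 correlated with the siblings at r = 0.684 and 0.714, and mutant replicate 2 at r = 0.362 and 0.451. In both mutants 7 members exceeded the limit, namely mcm5, gins2, pcna, rfc2, fen1, rrm2 and chaf1b. In mutant replicate 1 alone 11 further members exceeded it, and in mutant replicate 2 alone cdt1 did. At or under the limit in both mutants were 10 members. Of these, 7 were above the limits of both siblings: mcm4, mcm7, cdc45, ccne2, pold1, rrm1 and tyms. Of all listed genes 34.4% and 31.3% were above the limit in the siblings, against 17.0% and 10.5% in the mutants. The share of all genes that crossed in this way was not counted, so the 7 are not read against it. The limits were higher in the mutants (13.7 and 18.9 TPM) than in the siblings (3.93 and 6.44 TPM). A gene can therefore cross without a lower level. The sibling values of pold1, 16.6 and 13.7 TPM, were under the limit of mutant replicate 2. Of the 29 members 20 had both sibling values above the highest mutant limit.

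Subunits of the same complex were then set side by side with partners outside the 29 genes. Of the RPA subunits, rpa1 fell, with 83.1 and 164 TPM in sibling libraries and 9.41 and 12.0 in mutant ones (log2 change -3.34, SE 0.83, adjusted p 0.00376 by limma). In mutant replicate 1 the values of rpa2 and rpa3 were 107 and 59.1 TPM while rpa1 had 9.41 TPM, which is under the limit. The highest RPA subunit exceeded the lowest 2.14-fold and 4.55-fold in the siblings, 11.4-fold in mutant replicate 1 and 1.72-fold in mutant replicate 2, where all 3 were under the limit. Of the RFC subunits rfc3 fell, from 116 and 79.0 TPM to 9.51 and 10.1 TPM (log2 change -3.16, SE 0.82, adjusted p 0.00482 by limma), whereas the mutant values of rfc2 lay within the sibling range. In polymerase delta the genes pold1, pold2 and pold3 were all above the limits of both siblings and under the higher limits of both mutants, and pold3 fell. Both sibling values of pold1 (16.6 and 13.7 TPM) were themselves under the limit of mutant replicate 2, 18.9 TPM. So was pold2 in sibling replicate 2 (15.6 TPM). In the MCM ring 4 of 6 subunit genes were above the limit in mutant replicate 1 and 1 of 6, mcm5, in mutant replicate 2.

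**Figure D4:**
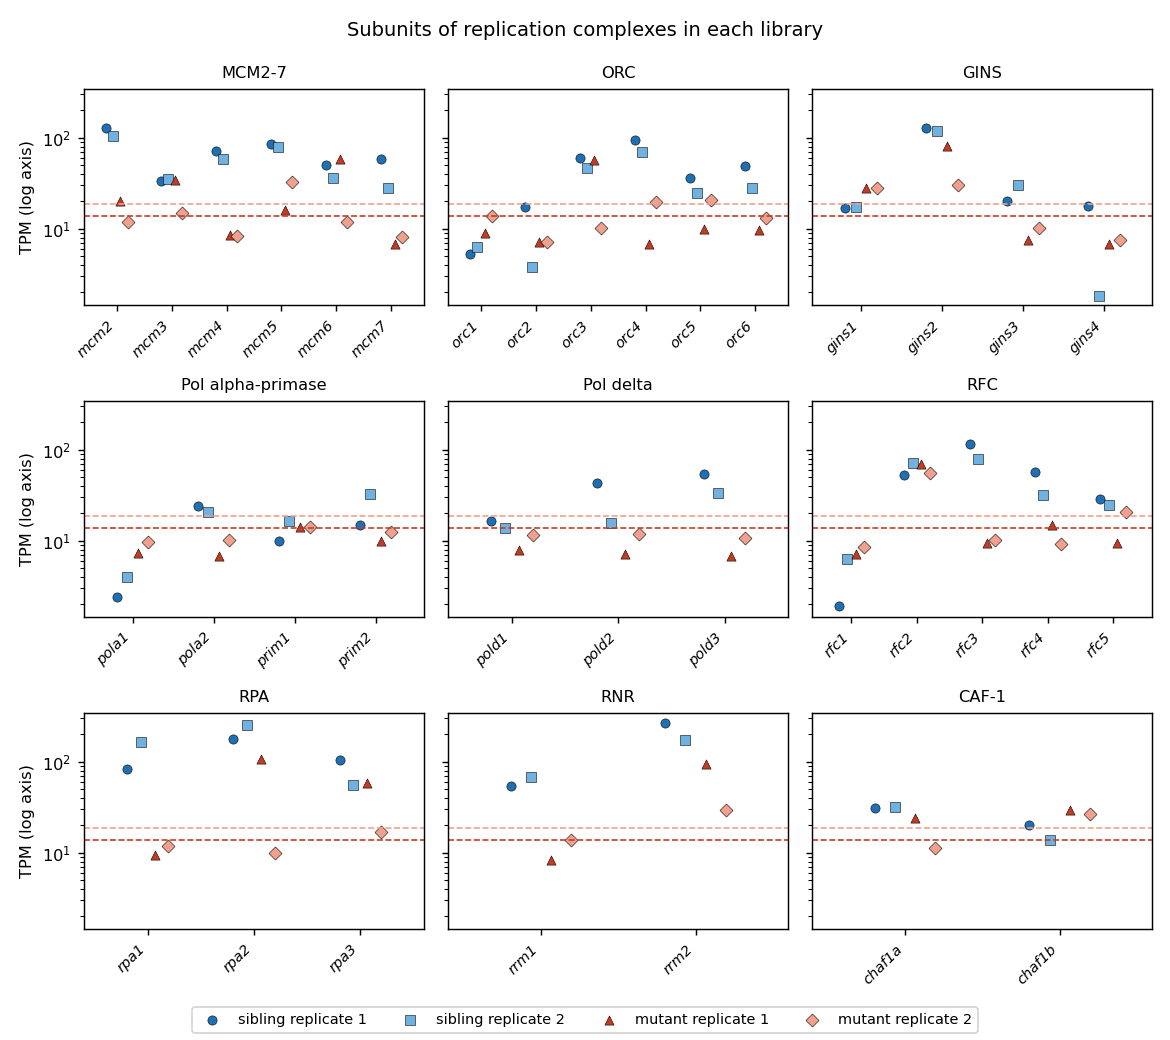
TPM of subunit genes in 9 replication complexes (panels) on a log axis, 4 points per gene for the 4 libraries, with dashed lines at the background limits of the mutant libraries (13.7 and 18.9 TPM). In MCM2-7, RFC and RPA some subunits of mutant replicate 1 remain near the sibling points while others lie under the limit. In RNR (ribonucleotide reductase) rrm1 of that library lies under the limit, and rrm2 lies above it but below both sibling points.

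Other genes of the pathway were counted from 4 lists of 89 symbols for origins, the fork, nucleotide synthesis and chromatin, of which 79 were tested. In the limma fit 8 fell (10.1%) and 12 rose (15.2%), beside 4.43% and 44.6% of all genes. The 12 that rose exceeded the limit in none of the 4 libraries. Of the 8 that fell 7 were above the limit in both siblings, and dut, for the enzyme that breaks down dUTP, was not, at 9.92 and 1.87 TPM in sibling libraries against 1.07 and 0 in mutant ones. Among 21 origin genes orc4, of the origin recognition complex, fell from 94.3 and 69.4 TPM to 6.87 and 19.8 TPM (adjusted p 0.0135 by limma), and 5 were called higher, led by mcm3l and mtbp. Among 22 fork genes 4 fell (rpa1, rfc3, pole4 and pold3) and 4 were called higher (atad5b, dna2, chtf18 and atad5a). The gene pole4, for a small subunit of polymerase epsilon, fell from 93.9 and 93.3 TPM to 8.16 and 12.3 TPM (adjusted p 0.00567 by limma). Among 21 genes of nucleotide synthesis dut fell and shmt2 and samhd1 were called higher. Among 15 chromatin genes cdca7a and hmgb2a fell and slbp2 was called higher. The abundant high mobility group gene hmgb2a had 2824 and 2268 TPM in sibling libraries against 990 and 156 in mutant ones (log2 change -2.68, SE 0.89, adjusted p 0.0184 by limma).

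Of 27 regulators of the G1 to S transition 1 fell (3.70%) and 7 were called higher (25.9%), beside 4.43% and 44.6% of all genes. The 7 called higher exceeded the limit in none of the 4 libraries, with ccnd2b, rbl2 and cdk4 leading. The 1 that fell was tfdp1b, for a dimer partner of E2F factors, from 40.1 and 46.7 TPM to 15.0 and 8.20 TPM (adjusted p 0.0364 by limma). The kinase gene cdk2, the partner of cyclin E, had 79.7 and 69.6 TPM in sibling libraries against 71.6 and 33.9 in mutant ones and did not pass the threshold. Genes of G2 and mitosis summed to 1260 and 1203 TPM (siblings) and 690 and 411 TPM (mutants). Of the 28 tested 5 fell and 1 was called higher, and cdk1 had 171 and 210 TPM in sibling libraries against 15.2 and 14.2 in mutant ones (adjusted p 0.00306 by limma).

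Summed markers of the sorted cells were also lower in both mutants. The 15 endothelial markers summed to 4690 and 3904 TPM (siblings) and 1742 and 504 TPM (mutants). In the limma fit 10 of them fell (66.7%) and 0 rose, beside 4.43% and 44.6% of all genes tested. Of tested genes with a mean of at least 20 TPM 28.1% were called lower, under the limit of that filter given above. After the median of the sensory and lens genes was subtracted in each library, the sum of the replication genes divided by that of the endothelial markers was 0.438 and 0.484 in the siblings. The same ratio was 0.461 in mutant replicate 1, within the range of the siblings, and 0.635 in mutant replicate 2, above it. By this ratio the sum of the replication genes was not lower in either mutant library. That holds for the sum and not for each member, since mcm7 was at 0 after subtraction in both mutants. In mutant replicate 2 the ratio rests on subtracted sums of 217 TPM, of which rfc2 gave 45.1, and 341 TPM. In that library 8 members and 9 of the 15 markers exceeded the limit. The markers include tie1, the targeted gene. Whether the replication genes follow the endothelial content of a library was not tested. The 10 venous and lymphatic markers summed to 2682 and 2151 TPM (siblings) and 1143 and 394 TPM (mutants). By limma 3 of these 10 fell and 1, prox1a, was called higher, beside 4.43% and 44.6% of all genes tested. The gene prox1a had 7.19 and 2.21 TPM in sibling libraries against 9.49 and 15.8 in mutant ones. Only its value in sibling replicate 1 exceeded a background limit.

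**Figure D5:**
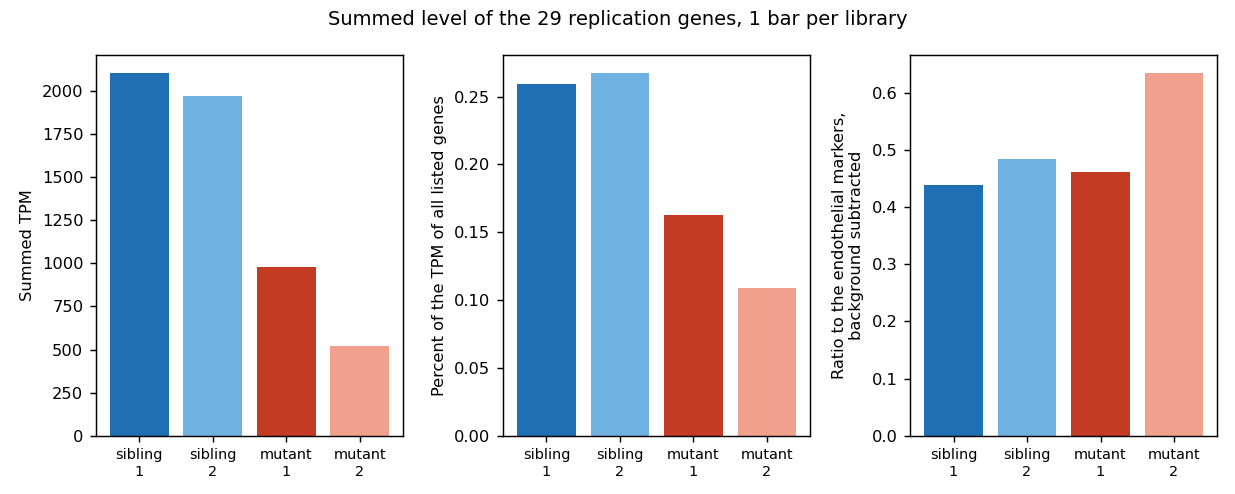
Summed level of the 29 replication genes in each library (1 bar per library), as TPM, as percent of the TPM of all listed genes, and as a ratio to the summed endothelial markers after background subtraction. The sums fall from 2106 and 1971 TPM to 978 and 523 TPM and the shares from 0.259% and 0.268% to 0.162% and 0.109%, while the ratios are 0.438, 0.484, 0.461 and 0.635.

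Markers of other cell types were counted beside 4.43% of all genes called lower and 44.6% called higher, and their sums include the background. Erythroid markers summed to 5224 and 4407 TPM (siblings) and 1925 and 717 TPM (mutants), and of 12 tested 3 fell and 3 were called higher. Leukocyte markers summed to 782 and 732 TPM against 941 and 396 TPM (14 tested, 3 lower, 3 higher), and muscle markers to 686 and 1822 TPM against 335 and 528 TPM (15 tested, 4 lower, 1 higher). Neural markers summed to 538 and 805 TPM against 446 and 209 TPM (14 tested, 1 lower, 7 higher). Epidermal markers summed to 1577 and 945 TPM against 919 and 331 TPM (12 tested, 1 lower, 2 higher). Mural and fibroblast markers summed to 216 and 194 TPM against 186 and 163 TPM (11 tested, 0 lower, 2 higher), with fbln1 listed at 0 in all 4 libraries. Of the markers called higher in these lists, only slc4a1a, epor, fabp7a and icn2 exceeded the background limit in any library. In mutant replicate 2 the limit was exceeded by 7 of 12 erythroid, 3 of 14 leukocyte, 11 of 15 muscle, 2 of 14 neural, 2 of 12 epidermal and 1 of 12 mural and fibroblast markers. In the same order the counts were 5, 5, 7, 4, 7 and 4 in mutant replicate 1. They were 9, 8, 13, 6, 9 and 8 in sibling replicate 1 and 9, 9, 14, 7, 6 and 7 in sibling replicate 2. The part of these cells, and of the background level, in the lower values of the replication genes was not tested.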

How the data were processed

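Double-positive (kdrl:EGFP and lyve1:DsRed) cells gave RNA that was amplified with a SMART-Seq v4 kit and converted with an NEBNext directional kit, as the labels' protocols state. For each library the authors deposited TPM values, per the file headers. The submitters' processing notes name Trim Galore 0.6.6, cutadapt 2.8, HISAT2 2.2.1, SAMtools 1.7, StringTie 2.1.4 and GRCz11. Parameters, annotation and filters are not given in the sources used here. Listed TPM summed to 813042 and 736606 in sibling replicates 1 and 2, and to 602394 and 481065 in mutant replicates 1 and 2. The main comparison did not bring the libraries to a common total. TPM keeps no read depth, so counting error is unknown.

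Groups came from the sample titles. The comparison used limma 3.58.1 (R 4.3.3) with log2(TPM + 1) of the 28301 genes whose mean was at least 1 TPM, eBayes with an intensity trend, two-sided p-values and Benjamini-Hochberg adjustment over all genes at 0.05. Fold changes on this scale understate those of low genes. There were 2 residual degrees of freedom and the estimated prior was infinite, so a gene's own replicate spread does not enter its p-value. The script was tested on simulated data, and the permutation test used scipy 1.17.1. Members, lists and tests were chosen with earlier results of these data known, and the grouping into complexes after their values were seen. All 29 members are named, and at most 3 called genes of each other list by lowest adjusted p. The genes rpa3, pold2, pold3, atad5b, dna2, chtf18, atad5a, tfdp1b, cdk2 and fbln1 were named after their values were seen. So were the markers prox1a, slc4a1a, epor, fabp7a and icn2. All 29 symbols matched an Ensembl gene name. Reads of mcm3 and slbp may be shared with the paralogs mcm3l and slbp2, so those values are uncertain.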

Additional observations from a re-analysis of the deposited data

How the results depend on the processing

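Alternatives were run 1 at a time, and causes of the changes were not tested. Against 7 members called lower, median-of-ratios rescaling left 0, quantile normalization 0 and subtraction of the background 0, and there were 12 without the intensity trend and 13 at an adjusted p threshold of 0.1. Leaving out 1 library gave 0 to 8, with 0 without sibling replicate 1, and assumes that the lone library left in a group varies like the others. Against 0 members called higher, 1 (pola1) was called with a pseudocount of 5, after rescaling to 1000000, with robust eBayes and at a threshold of 0.1, and 0 to 3 without 1 library. The member median of -1.31 became -2.60 with median-of-ratios and -2.46 with background subtraction, where the median of all genes was 0.03 and -1.11, and -1.36 to -0.86 without 1 library. Genes called lower (1255) were 0, 0 and 0 under the same 3 rescalings, 706 after rescaling to 1000000, 1986 without the trend, 1886 at a threshold of 0.1 and 66 to 1762 without 1 library. Genes called higher (12618) were 0, 0 and 0, then 8103 without the trend, and 521 to 14006 without 1 library. At an unadjusted p under 0.05 limma found 4117 lower and 1220 higher with median-of-ratios, 1828 and 1335 with quantile and 2717 and 279 with background scaling. Members separated lower by 2-fold (15) were 24 after median-of-ratios rescaling and 13 to 18 without 1 library. Members separated in that way were 21 after background subtraction, and 11 both after quantile normalization and after rescaling to 1000000. Apart from quantile normalization (8.81% of all genes tested), the share of all genes separated under these alternatives was not counted. The member counts are therefore not read against it. The log2 change of tie1, -1.66, passed the threshold without the trend and at 0.1. Members above the limit in both mutants (7) were 8 and 6 with the limit at the 90th and 99th percentile, chosen after seeing the data. The replicate numbers share only a number, since the labels state no pairing. With a replicate block 5 members were called lower (mcm2, mcm4, mcm7, pcna and rrm1), 1 higher (pola1), and 666 genes lower. Signs turned after background subtraction for cdc6 (-0.72), ccne1 (-1.82), prim1 (-1.05), rfc2 (-0.14) and uhrf1 (-1.31). They turned after median-of-ratios rescaling for cdc6 (-0.38), ccne1 (-0.70), prim1 (-1.16), rfc2 (-1.33), chaf1b (-0.64) and uhrf1 (-0.84). They turned after quantile normalization for cdc6 (-0.12), cdt1 (0.30), ccne1 (-0.64), pola1 (-0.11), uhrf1 (-0.019) and samhd1 (-0.10), and after rescaling to 1000000 for cdt1 (0.41). Without 1 library the log2 change ranged from -0.18 to 1.78 for cdc6, -0.73 to 1.65 for ccne1, -0.21 to 0.46 for prim1, -0.17 to 0.24 for rfc2, -1.12 to 0.95 for cdt1, -1.15 to 0.0046 for mcm3, -1.74 to 0.46 for mcm6 and -1.94 to 0.038 for slbp.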
